A study of Mus musculus with 8 samples.

Results

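Toll-like receptors and their co-receptor CD14 were described in liver from wild-type C57BL/6 mice (C57BL/6J per the methods) administered 1 of 2 diets. The members were the 10 genes Tlr1 to Tlr9 and Cd14, taken by gene name from the non-control probes of the array, and 12 of its 41174 probes carried one of these names. Of the 10 genes, 9 had a detected probe and could be tested, among 16558 genes tested in all. Male mice were 14 to 17 weeks of age per the labels when the experiment began. Of these, 4 were kept on standard chow (STD diet) and 4 received a high-fat, high-cholesterol diet with cholic acid, the atherogenic (ATH) diet, for 4 weeks. Neither group carried a transgene or a targeted allele. Liver was snap frozen after CO2 asphyxiation, and RNA of each whole liver sample was labeled with Cy3 and hybridized to its own Agilent array. The study addressed inflammation and lipid metabolism in this diet model of fatty liver disease.

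Toll-like receptors are membrane proteins of innate immunity that bind molecules typical of microbes, and some of them have also been reported to respond to molecules released from damaged cells. Receptors at the cell surface, among them the products of Tlr1, Tlr2, Tlr4, Tlr5 and Tlr6, bind lipids and proteins of microbes, whereas those of Tlr3, Tlr7, Tlr8 and Tlr9 bind nucleic acids inside endosomes. In liver they are expressed by Kupffer cells, the resident macrophages, by other leukocytes, and to differing degrees by endothelial cells, stellate cells, biliary cells and hepatocytes. Most signal through the adaptor MyD88 to NF-kappaB, a transcription factor that induces cytokines and chemokines, and CD14 hands lipopolysaccharide to the receptor complex of TLR4 and MD-2.

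Upstream sequence is shown for Tlr2 and Tlr1, whose proteins recognise lipopeptides together and which had the largest log2 differences between diets among the receptors. The 250 bases before each gene's start are those of RefSeq on GRCm38.p6, at chr3:83841609-83841858 (minus strand) for Tlr2 and chr5:64933559-64933808 (minus strand) for Tlr1. Capitals mark a match to the kappaB consensus in Tlr2, whose first base lies 173 bases before the start, and a match to GAGGAAGT, a purine-rich motif of the kind bound by the myeloid factor PU.1, in Tlr1, whose first base lies 23 bases before the start.
Tlr2: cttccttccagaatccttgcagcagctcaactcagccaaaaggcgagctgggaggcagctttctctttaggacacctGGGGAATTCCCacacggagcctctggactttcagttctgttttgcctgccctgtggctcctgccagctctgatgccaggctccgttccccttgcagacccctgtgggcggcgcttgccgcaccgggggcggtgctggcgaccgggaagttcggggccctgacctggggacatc
Tlr1: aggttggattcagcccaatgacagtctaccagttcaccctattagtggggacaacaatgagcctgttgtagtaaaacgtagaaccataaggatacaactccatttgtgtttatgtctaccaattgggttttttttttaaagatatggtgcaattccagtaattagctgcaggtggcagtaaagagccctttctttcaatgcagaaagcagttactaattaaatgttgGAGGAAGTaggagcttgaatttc
Windows of 250 bases before and 50 bases after the start were searched on both strands, and 7 members had one. The kappaB consensus was found in the windows of Tlr2 and Tlr3, and in 8.46% of all 32851 windows. GAGGAAGT was found in those of Tlr1 and Tlr9, and in 3.2% of all windows. The motifs do not overlap in the sequences shown, and a match is a description of the letters, not of binding.

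Because these receptors are related in sequence, the probes were also compared with each other, leaving out that of Cd14. The most alike pair was that of Tlr1 and Tlr2, whose closest stretches of 30 bases without a gap had 22 bases in common, marked here in capitals. The Tlr2 stretch starts at base 14 of its probe (chr3:83941473-83941532 on mm7, minus strand) and the Tlr1 stretch at base 1 of its probe (chr5:64279687-64279746 on mm7, minus strand).
Tlr2 probe: CcAGCAgGaAgTgTTTTGGGtAAAtCTgAG
Tlr1 probe: CaAGCAtGgAcTtTTTTGGGcAAAcCTaAG
Hybridization of one transcript to the probe of the other was not tested.

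Values below are the log2 processed signal of a probe minus the 75th percentile of its array, so a difference of 1 between diets is a change by a factor of 2. Since each probe has its own brightness, values were compared between diets and not between genes. A probe was detected when it was well above background on at least 3 of the 4 arrays of a diet, and spots well above background made up 72.3% to 77.8% of an array. A difference was called when limma's two-sided test gave a Benjamini-Hochberg adjusted p under 5% over all 31056 detected probes. The precision is limited by the number of arrays. Each diet had a slide of its own, and in every result here the effect of diet cannot be told apart from that of slide. The median SD of a gene was 0.19 among STD diet arrays and 0.27 among ATH diet arrays. In whole liver, a change in the number of cells that express a gene and a change in RNA per cell cannot be told apart.

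Of the 9 members tested, 3 rose on the ATH diet (Tlr2, Cd14 and Tlr4), 2 fell (Tlr5 and Tlr9) and 4 were not called (Tlr1, Tlr3, Tlr6 and Tlr7). Over all genes, 4.05% were called higher and 5.3% lower. At the 1% threshold named in the methods 0 of the 9 passed by limma, against 0.64% of all genes, while all 9 had an unadjusted p under 0.05, against 30.6% of all genes. The median log2 difference of the members was 1.49, and that of all genes was -0.14. Values of the diets did not overlap for 6 members that were higher and 2 that were lower on the ATH diet, against 7.6% and 14.6% of all genes. Tlr6 was the member whose values overlapped.

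**Figure D1:**
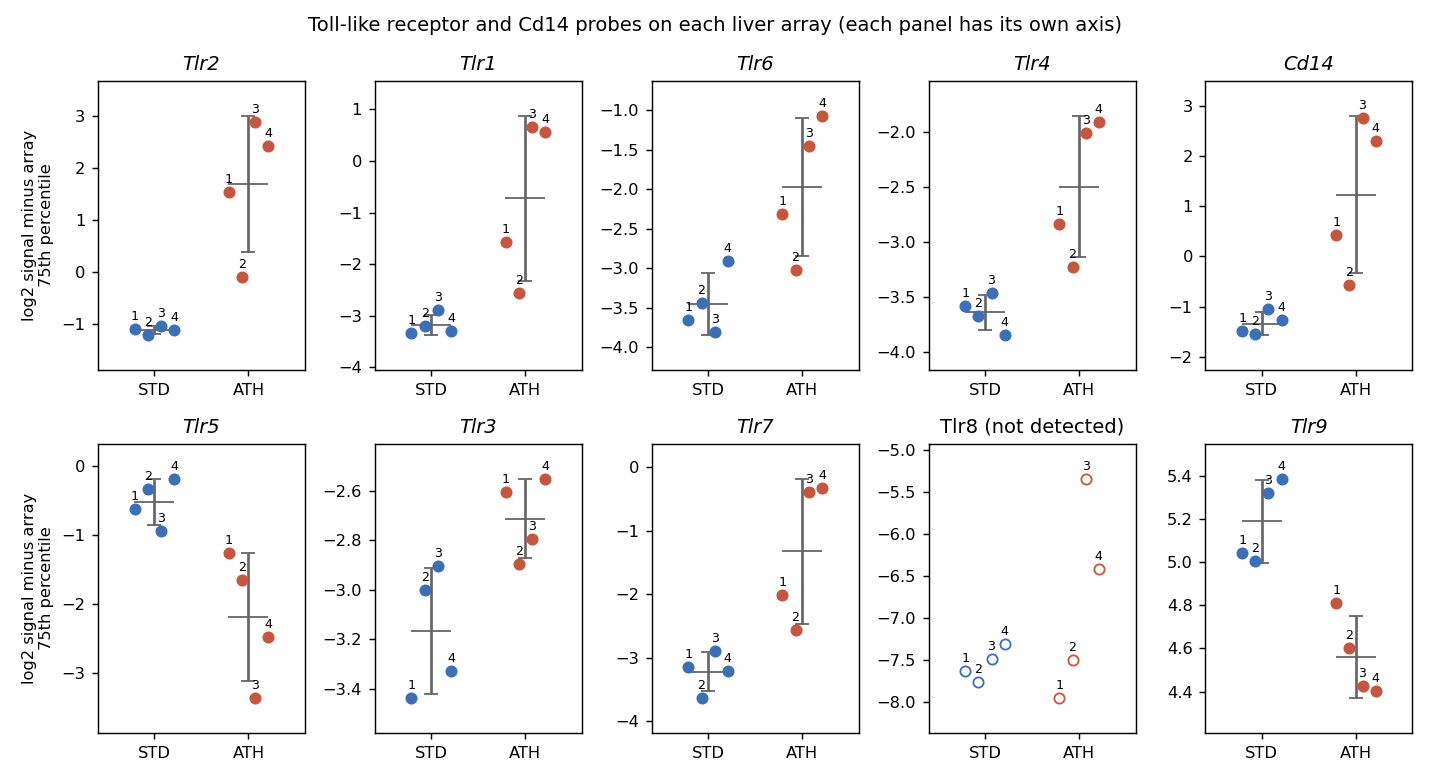
Scaled log2 signal (y axis, relative to the 75th percentile of the array) of 1 probe per gene on each STD (blue) and ATH (red) diet array, numbered 1 to 4, with the mean and SD of each diet as bars and Tlr8, which was not detected, as open circles without bars. The ATH diet arrays of Tlr2 spread from -0.10 to 2.89 while its STD diet arrays stay between -1.22 and -1.05, and Tlr5 and Tlr9 are the genes with all ATH diet arrays below the STD diet arrays.

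Among the lipopeptide receptors, Tlr2, which pairs with TLR1 or TLR6, had the largest difference of the members. Its probe, printed on 10 spots of each array, read -1.09, -1.22, -1.05 and -1.12 on STD diet arrays 1 to 4 and 1.54, -0.10, 2.89 and 2.42 on ATH diet arrays 1 to 4. Every ATH diet array was above every STD diet array, and ATH 2 was the lowest of the ATH diet arrays. Tlr2 rose by 2.81 on the log2 scale (SE 0.55, 95% confidence interval 1.57 to 4.05, adjusted p = 0.0253), or 7.02-fold. The SD was 0.07 among STD diet arrays and 1.31 among ATH diet arrays (n = 4 each).

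Tlr1, the partner of TLR2 for triacylated lipopeptides, read -3.33, -3.19, -2.89 and -3.29 on the STD diet arrays and -1.58, -2.55, 0.66 and 0.56 on the ATH diet arrays. The diets did not overlap, and ATH 3 and ATH 4 were far above ATH 1 and ATH 2. The difference of 2.45 (SE 0.67, 95% confidence interval 0.94 to 3.96) had an adjusted p of 0.0563 and was not called. Tlr6, the partner for diacylated lipopeptides, read -3.66, -3.44, -3.81 and -2.91 on the STD diet and -2.31, -3.02, -1.45 and -1.07 on the ATH diet. Here ATH 2 lay below STD 4. The difference was 1.49 (SE 0.41, 95% confidence interval 0.57 to 2.41, adjusted p = 0.0565) and was not called.

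The lipopolysaccharide receptor and its co-receptor both rose. Cd14 encodes a protein that is anchored in the membrane of myeloid cells or circulates in soluble form. It read -1.49, -1.54, -1.04 and -1.27 on STD diet arrays and 0.43, -0.56, 2.76 and 2.29 on ATH diet arrays. The groups did not overlap, and the 4 ATH diet mice stood in the same order as for Tlr2, with ATH 2 lowest and ATH 3 highest. Cd14 rose by 2.56 (SE 0.65, 95% confidence interval 1.08 to 4.05, adjusted p = 0.0479), or 5.91-fold. With quantile normalization it was 2.62 and was not called (adjusted p = 0.0589). Tlr4, which encodes the signaling receptor itself, read -3.58, -3.67, -3.46 and -3.85 on STD diet arrays and -2.84, -3.23, -2.01 and -1.91 on ATH diet arrays. All ATH diet arrays were again above all STD diet arrays, by 0.23 at the closest. Tlr4 rose by 1.15 (SE 0.29, 95% confidence interval 0.49 to 1.80, adjusted p = 0.0472), or 2.21-fold. With normexp background correction the difference of Tlr4 was smaller, at 0.47, and its adjusted p lay just under the 5% threshold.

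These values are from the Tlr4 probe at chr4:66276388-66276447 (mm7, plus strand), which is printed on 10 spots. A second probe named Tlr4, at chr4:66363220-66363279, was not detected, being well above background on 1 STD diet array and 2 ATH diet arrays. It carries the accession of a separate cDNA and lies 86.8 kb from the first, while the Tlr4 gene spans 19.0 kb in the later assembly GRCm38. Whether it measures Tlr4 is therefore uncertain, and no difference is given for it.

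Tlr5, the receptor for bacterial flagellin, was the receptor of the cell surface with lower values on the ATH diet. Its probe (chr1:182962847-182962906 on mm7, plus strand) carries the accession of a predicted transcript. It read -0.62, -0.33, -0.95 and -0.18 on STD diet arrays and -1.26, -1.65, -3.36 and -2.47 on ATH diet arrays. Every ATH diet array was below every STD diet array, and ATH 3, the highest for Tlr2 and Cd14, was the lowest for Tlr5. Tlr5 fell by 1.67 on the log2 scale (SE 0.42, 95% confidence interval -2.61 to -0.72, adjusted p = 0.0464), or 3.17-fold. With scaling on the median, by quantiles or on spike-in RNA it was not called, at -1.59, -1.65 and -1.36 (adjusted p = 0.0595, 0.0548 and 0.0628).

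Of the endosomal receptors, Tlr9 was called, Tlr3 and Tlr7 were not, and Tlr8 was not detected. Tlr7, which encodes a receptor for single-stranded RNA, read -3.15, -3.63, -2.90 and -3.21 on STD diet arrays and -2.01, -2.57, -0.39 and -0.32 on ATH diet arrays. The groups did not overlap, and ATH 2 was again the lowest ATH diet array. The difference of 1.90 (SE 0.49, 95% confidence interval 0.78 to 3.02) had an adjusted p of 0.0505, just over the threshold. Tlr8, the neighbour of Tlr7 on chromosome X and a related receptor for RNA, was well above background on 0 of 4 STD diet arrays and on 1 of 4 ATH diet arrays (ATH 3, -5.34), so no fold is given.

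Tlr3, the receptor for double-stranded RNA, had 2 detected probes. The brighter one (chr8:44182210-44182269 on mm7, minus strand) read -3.44, -3.00, -2.90 and -3.33 on the STD diet and -2.60, -2.90, -2.79 and -2.55 on the ATH diet. The other (chr8:44181930-44181989) read -4.51, -3.87, -3.82 and -3.84 on the STD diet and -3.18, -3.43, -3.66 and -3.01 on the ATH diet. On both probes the ATH diet arrays were above the STD diet arrays, by as little as 0.0065 on the first and 0.16 on the second. The differences were 0.46 (SE 0.16, adjusted p = 0.105) and 0.69 (SE 0.21, adjusted p = 0.0711), and neither was called. ATH diet arrays 3 and 4, where Tlr1, Tlr2, Tlr7 and Cd14 were highest, did not stand apart from ATH diet arrays 1 and 2 for Tlr3.

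Tlr9, which encodes the receptor for unmethylated CpG DNA, read 5.04, 5.01, 5.32 and 5.39 on STD diet arrays and 4.81, 4.60, 4.42 and 4.40 on ATH diet arrays. The groups did not overlap, and the SD was 0.19 in each. Tlr9 fell by 0.63 (SE 0.15, 95% confidence interval -0.97 to -0.29, adjusted p = 0.0408). This probe (chr9:105956096-105956155 on mm7, plus strand) had a processed signal of 13436 to 18781 before scaling and was saturated on 0 arrays. It was the brightest member probe, with each value above the highest of the others, which was 2.89 (Tlr2 on ATH 3). Hybridization of other transcripts to it was not tested. Relative to its size, its decrease depended on the scaling between arrays more than the change of any other called member, with -0.18 without scaling (adjusted p = 0.310) -0.32 when arrays were scaled on spike-in RNA (adjusted p = 0.184), -0.37 with quantile normalization (adjusted p = 0.108) and -0.56 with median scaling (adjusted p = 0.0602).

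**Figure D2:**
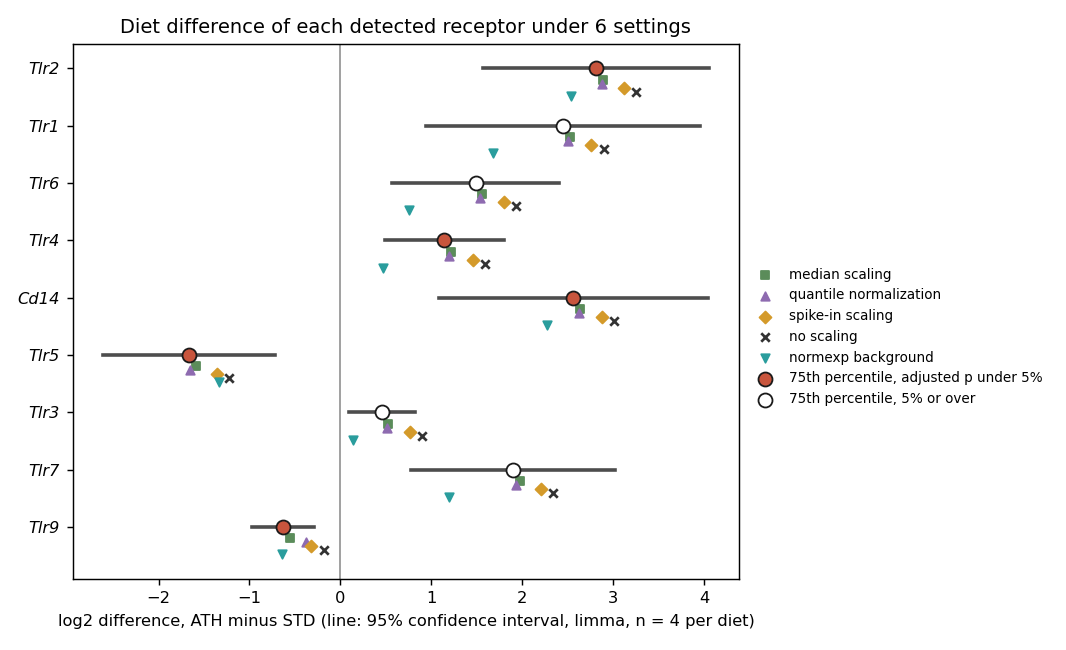
Log2 difference between diets (x axis, ATH minus STD, n = 4 each) of the 9 detected genes, with the 95% confidence interval as a line, filled circles for genes called at 5% and small symbols for 5 other ways of scaling or background correction. Directions are shared by all 6 settings, from 2.53 to 3.26 for Tlr2, while the symbols of Tlr9 run from -0.64 to -0.18.

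Calls near the threshold depended on which arrays were included, among the members and over all detected probes. With any 1 STD diet array, ATH 3 or ATH 4 left out, 0 of the 9 members passed 5%. Without ATH 1, 3 members passed (Tlr2, Tlr5 and Tlr9), and without ATH 2, 8 passed, Tlr3 being the exception. Of all 31056 detected probes, 2482 passed with every array and 394 to 1019 with 1 STD diet array left out. The count was 642 without ATH 3, 494 without ATH 4, 1656 without ATH 1 and 3978 without ATH 2. Over these repeats the adjusted p of Tlr2 ran from 0.0016 to 0.0712, that of Cd14 from 0.0083 to 0.117, that of Tlr4 from 0.0107 to 0.109, that of Tlr5 from 0.0347 to 0.114 and that of Tlr9 from 0.0422 to 0.106. Without both ATH 3 and ATH 4, 0 members and 214 of all detected probes passed. The log2 difference was then 1.85 for Tlr2, 1.27 for Cd14, 0.61 for Tlr4, -0.94 for Tlr5 and -0.48 for Tlr9. The direction of each of the 9 genes was the same in every one of these repeats. Leaving out arrays cannot reverse a gene whose diets do not overlap, so only Tlr6 could have come out otherwise.

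Whether members changed by unequal amounts was asked within each array, where scaling between arrays cancels. The difference between 2 probes has no meaning as a ratio of transcripts, but its change between diets has. Cd14 minus Tlr4 was 2.09, 2.13, 2.42 and 2.57 on STD diet arrays and 3.27, 2.67, 4.76 and 4.20 on ATH diet arrays. The diets did not overlap, and the mean was higher on the ATH diet by 1.42 (exact permutation test over 70 assignments, two-sided, p = 0.0286, adjusted over 6 pairs 0.0571). Tlr2 minus Tlr4 was 2.49, 2.45, 2.41 and 2.73 on the STD diet and 4.38, 3.13, 4.90 and 4.33 on the ATH diet, higher by 1.67 (exact permutation test, p = 0.0286, adjusted 0.0571). Tlr7 minus Tlr9 differed by 2.53 with no overlap between diets (exact permutation test, p = 0.0286, adjusted 0.0571). The p of 0.0286 is the smallest that 4 mice against 4 allow, and it passes 5% after adjustment over 6 pairs only where at least 4 of them reach it. With any 1 STD diet array left out the p of these 3 pairs was 0.0571, and with any 1 ATH diet array left out it was 0.0286 (exact permutation tests). Fewer than 70 assignments remain in these repeats, so p moves in larger steps. Without 1 STD diet array the differences were 1.35 to 1.51 for Cd14 minus Tlr4 and 1.63 to 1.73 for Tlr2 minus Tlr4. For Tlr7 minus Tlr9 they were 2.45 to 2.60.

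The other 3 pairs overlapped between diets. Tlr1 minus Tlr6, which sets the alternative partners of TLR2 against each other, was 0.28 ± 0.53 on the STD diet and 1.24 ± 0.77 on the ATH diet (SD, n = 4, exact permutation test, p = 0.114). Tlr2 minus Tlr1 was 2.06 ± 0.18 and 2.42 ± 0.53 (SD, n = 4, exact permutation test, p = 0.257). Tlr4 minus Tlr3 was -0.47 ± 0.23 and 0.22 ± 0.58 (SD, n = 4, exact permutation test, p = 0.0857). After adjustment over the 6 pairs these values were 0.137, 0.257 and 0.129, so an unequal change was not shown for them, nor was an equal one. Tlr8 minus Tlr7 could not be computed, because Tlr8 was not detected.

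**Figure D3:**
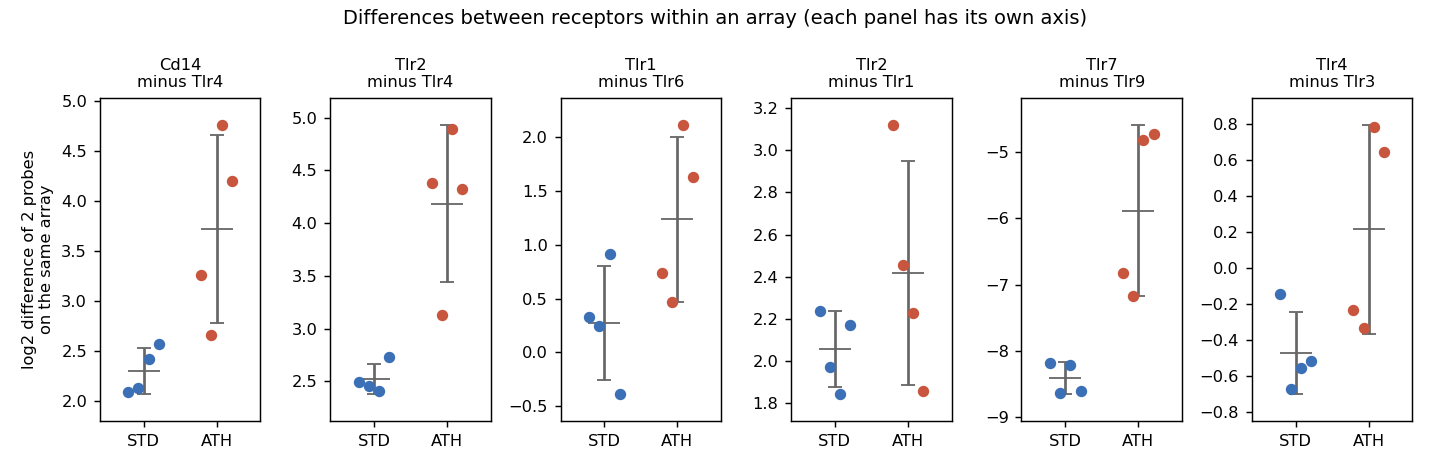
Log2 difference between 2 probes on the same array (y axis) for 6 pairs of genes on STD (blue) and ATH (red) diet arrays, with the mean and SD of each diet as bars. The ATH diet arrays lie above all STD diet arrays for Cd14 minus Tlr4, Tlr2 minus Tlr4 and Tlr7 minus Tlr9, and the diets overlap for the other 3 pairs.

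Co-receptors and chaperones help the receptors bind ligands or reach their membranes. Of 11 co-receptors and chaperones, all detected, 2 rose, 0 fell and 9 were not called, with a median log2 difference of 0.30. For this and the following lists, the shares over all genes were 4.05% called higher and 5.3% called lower. Ly86, which encodes MD-1, read 0.79 to 0.90 on the STD diet arrays and 2.66, 1.73, 3.39 and 3.67 on ATH diet arrays 1 to 4, and rose by 2.01 (SE 0.37, adjusted p = 0.0215). Cd180, the receptor-like protein that MD-1 binds, rose by 1.46 (SE 0.34, adjusted p = 0.0382). Ly96 encodes MD-2, which binds lipopolysaccharide on TLR4, and read 1.21 ± 0.17 on the STD diet and 1.35 ± 0.23 on the ATH diet (SD, n = 4), a difference of 0.13 (95% confidence interval -0.22 to 0.49, limma adjusted p = 0.604). Lbp, the plasma protein that delivers lipopolysaccharide to CD14, differed by 0.31 (95% confidence interval -0.25 to 0.87, adjusted p = 0.428). Unc93b1, which carries the nucleic acid receptors to endosomes, differed by 0.60 (95% confidence interval -0.16 to 1.37, adjusted p = 0.268). Other mouse receptors of the family, Tlr11, Tlr12 and Tlr13, had 0 probes under their names.

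Adaptors and kinases of the pathway gave the narrowest spread of the 5 lists. Of 25 listed, 24 were detected (Ticam2 was not), of which 0 rose, 1 fell and 23 were not called. The median was -0.01, or 0.44 without scaling between arrays, so the list has no direction that holds under both. The gene called was Ikbkg, which encodes the regulatory subunit of the IkappaB kinase complex, with a decrease of 0.74 (SE 0.15, adjusted p = 0.0297) that was -0.30 without scaling (adjusted p = 0.213). Myd88, the adaptor of most receptors, differed by 0.32 (95% confidence interval -0.07 to 0.72, adjusted p = 0.252). Ticam1, the adaptor used by TLR3 and by TLR4 in endosomes, differed by 0.11 (95% confidence interval -0.23 to 0.46, adjusted p = 0.653).

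Of 14 negative regulators, 1 rose and 13 were not called, with a median of 0.32. Tnfaip3, which encodes the ubiquitin-editing enzyme A20, read -2.14, -1.72, -1.86 and -2.09 on the STD diet and 0.40, -0.22, 1.37 and 1.06 on the ATH diet. It rose by 2.61 (SE 0.32, adjusted p = 0.0066), and its lowest ATH diet array was above its highest STD diet array. Irak3, a kinase-like inhibitor found mainly in myeloid cells, differed by 1.98 (95% confidence interval 0.66 to 3.31, adjusted p = 0.0693) and was not called. Of 13 genes for proteins reported as endogenous ligands, 0 rose, 1 fell and 12 were not called, with a median of 0.24. The decrease was in Hspd1, a mitochondrial chaperone, by 0.56 (SE 0.14, adjusted p = 0.0473), and was -0.11 without scaling (adjusted p = 0.583).

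Among genes known to be induced through the pathway, most of those detected rose. The list was chosen with earlier results of these data known, so its share of calls is not an independent test. Of 20 listed, 17 were detected (Ifnb1, Nos2 and Ptgs2 were not), of which 11 rose, 0 fell and 6 were not called, with a median of 2.55. Acod1, which encodes the enzyme that makes itaconate in activated macrophages, rose by 4.35 (SE 0.93, adjusted p = 0.0323). The chemokine genes Ccl4, Ccl2 and Ccl3 rose by 3.38 (SE 0.45, adjusted p = 0.0089), 3.37 (SE 0.67, adjusted p = 0.0264) and 3.19 (SE 0.63, adjusted p = 0.0254), and Ccl3 was detected on only 1 of 4 STD diet arrays, so that its STD diet values lie near background. Among the 15 genes detected on at least 3 arrays of each diet, 10 rose and 0 fell. The cytokine genes Tnf, detected on 3 of 4 STD diet arrays, and Il1b rose by 3.14 (SE 0.75, adjusted p = 0.0417) and 2.55 (SE 0.56, adjusted p = 0.0343). Over all 5 lists, 79 of 86 genes were detected, 14 rose, 2 fell and 63 were not called, beside 4.05% higher and 5.3% lower over all genes. Of the 14 that rose, 11 were these transcriptional targets. The total of 16 calls was 2 to 6 with any 1 array other than ATH 2 left out and 26 without ATH 2.

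**Figure D4:**
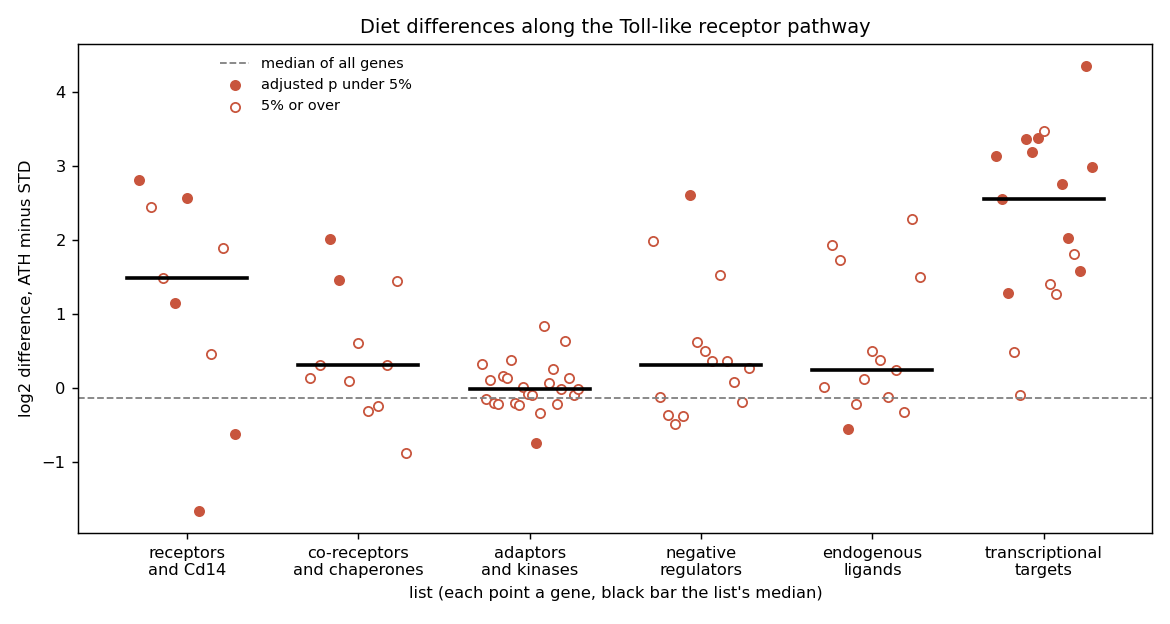
Log2 difference between diets (y axis, ATH minus STD) of each detected gene in the receptor family and in 5 lists of the pathway, with filled points for genes called at 5%, black bars for list medians and a dashed line for the median of all genes at -0.14. The receptors spread from -1.67 to 2.81, the adaptors and kinases run from -0.74 to 0.84 with a median of -0.01 (0.44 without scaling), and the transcriptional targets have a median of 2.55.

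The mean of the macrophage markers was higher on the arrays where Tlr1, Tlr2, Tlr4, Tlr6, Tlr7 and Cd14 were higher. All 10 listed were detected, 5 rose (Cd68, Lyz2, Fcgr1, Mpeg1 and Cd5l) and 0 were called lower, beside 4.05% and 5.3% of all genes. The median difference was 1.58. Not called were Adgre1 (1.54), Csf1r (1.12), Itgam (0.74), Mertk (0.65) and Cx3cr1, which was lower (-0.30). The mean deviation of the 10 from the STD diet mean was -0.19 to 0.13 on STD diet arrays and 1.01, 0.41, 1.84 and 1.99 on ATH diet arrays 1 to 4, lowest on ATH 2 as for these receptors. Among ATH diet arrays, the Kupffer cell, dendritic cell, T cell, B cell and neutrophil means were also lowest on ATH 2. They were highest on ATH 3 or ATH 4, so this order was not particular to the macrophage markers. Of 5 Kupffer cell markers, 1 rose (Marco), and the mean deviation was -0.18 to 0.15 on the STD diet and -0.01 to 1.69 on the ATH diet. Marco differed by 3.43 (adjusted p = 0.0353) and Cd163 by -1.33 (adjusted p = 0.109), so the mean of this list joins genes of opposite direction. Of 7 dendritic cell markers 3 rose (Itgax by 3.91, Siglech by 2.04 and Flt3 by 0.62) and 1 fell (Xcr1, -0.67). The mean of this list thus also joins genes of opposite direction and unequal size. Its deviation was 0.56 to 1.50 on the ATH diet, above the -0.10 to 0.05 of the STD diet. One that rose, Siglech, was detected on 1 of 4 STD diet arrays, and among the 6 detected on at least 3 arrays of each diet 2 rose and 1 fell.

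Lymphocyte and neutrophil markers gave 0 calls by limma. An unadjusted p under 0.05 was found for 4 T cell genes that were higher (Cd3d, Cd3g, Cd8a and Lck), for Cd3e, which was lower (-0.71), for 0 B cell genes and for 1 neutrophil gene (Cxcr2, lower, -0.48), beside the 30.6% of all genes. The lists held 6 detected T cell genes, 4 of 5 listed B cell genes (Pax5 was not detected) and 6 of 8 listed neutrophil genes. Of the neutrophil genes, Elane was not detected and Ly6g had no probe under its name. Mean deviations of the T cell, B cell and neutrophil lists on ATH diet arrays were -0.09 to 1.81, -0.37 to 0.74 and -0.13 to 1.10. On STD diet arrays they were -0.17 to 0.22, -0.34 to 0.21 and -0.20 to 0.22, so each of these lists overlapped between diets. The part of changed cell numbers in the receptor differences was not tested.

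The hepatocyte markers identified the tissue and were lower on the ATH diet after scaling. All 8 with a probe were detected, and 2 fell (Ass1 and Tat), beside 5.3% of all genes. The mean deviation of the 8 was -0.58 to -0.21 on ATH diet arrays against -0.07 to 0.04 on STD diet arrays, lowest on ATH 3 and ATH 4 as for Tlr5 and Tlr9. The part of this difference in those of Tlr5 and Tlr9 was not tested. Their median difference of -0.28 was 0.17 without scaling between arrays, so its direction depends on that step. Among sinusoidal endothelial, stellate and cholangiocyte markers 1 gene of each list rose (of 7, 7 and 5), beside 4.05% of all genes. Mean deviations on ATH diet arrays were 0.16 to 0.51, 0.41 to 0.82 and at least 0.20. On STD diet arrays they were -0.22 to 0.24, -0.20 to 0.17 and -0.21 to 0.13, so the endothelial list overlapped between diets.

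**Figure D5:**
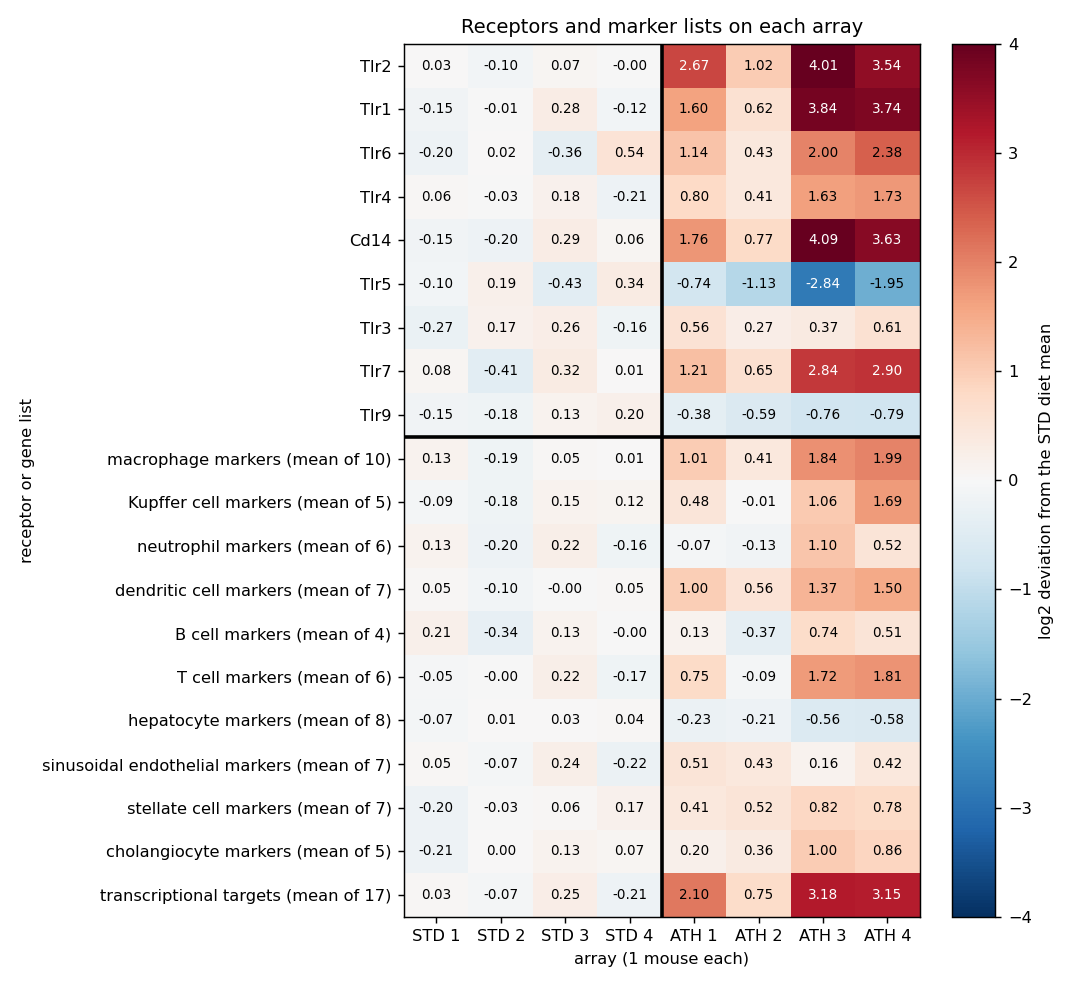
Log2 deviation from the STD diet mean (colour and printed value) of each detected receptor and of the mean of each marker list and of the pathway's transcriptional targets (rows) on the 8 arrays (columns). ATH 2 has the smallest deviation of the ATH diet arrays for Tlr2 (1.02), Cd14 (0.77) and the macrophage markers (0.41), and Tlr5 reaches -2.84 on ATH 3.

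The genes whose pattern over the 8 arrays was most like that of each called member were found by Pearson correlation among 14939 genes detected on every array. For Tlr2 these were Plaur (r = 0.998), Bcl2a1c (0.995) and Tmsb4x (0.994), and for Tlr4 they were Cd53 (0.998), Fam111a (0.998) and Plekho1 (0.998). For Cd14 they were Clec4d (0.998), Tlr1 (0.996) and Lyz1 (0.996). Of these, Tlr1 is itself a member. Those of Tlr5 were R3hcc1 (0.996), Dnajc30 (0.993) and Chchd5 (0.993), which were lower on the ATH diet by smaller amounts (-0.44, -0.56 and -0.35). Those of Tlr9 were Ccin (0.996), Olfr668 (0.995) and Zbtb7c (0.995), which were also lower (-0.70, -0.82 and -0.61). These correlations describe 8 arrays that share a difference between diets and slides and the scaling of each array.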

How the data were processed

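Liver RNA of 4 STD and 4 ATH diet mice was measured with 1 array per mouse. The authors ran Agilent Feature Extraction 9.5 (submitters' processing notes) with 1-color defaults, and the deposited spot intensity values are background-subtracted, detrended and not scaled between arrays. Log2 values that the authors made in GeneSpring, with a baseline removed per probe, were deposited too and used as an alternative. Outlier spots were dropped, spots of a probe averaged, and log2 signal minus the array's 75th percentile tested with limma 3.58.1 in R 4.3.3 (lmFit, eBayes, Benjamini-Hochberg). The brightest detected probe stood for a gene. Exact tests used Python 3.11.15 and scipy 1.17.1. The fit was tested on simulated data with the same numbers of arrays, drawn independently with 1 SD per probe shared by both diets. Of 200 probes changed by 2, 175 were recovered among 31056, with 7 false calls. A spread that differs between diets, as seen for Tlr2, was not simulated, so recovery and false calls under it are not known.

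Members and gene lists were chosen with earlier results of these data known. Named genes were all members, up to 4 called genes per list with the largest difference, and Ly96, Lbp, Myd88, Ticam1, Unc93b1, Irak3, Tnf, Il1b and Ccl2. Probes were named through RefSeq accession, symbol or synonym, and 8455 kept the array's name. Positions of probes come from the array design (mm7), and their place in exons was not analysed here. Alternatives covered scaling, normexp background correction with an offset of 50, the deposited log2 values, detection filters, the replicate number as a block, the methods' unequal-variance test, the 1% threshold, the mean of all probes and each array left out. Leaving out ATH 3 and ATH 4 together was chosen after seeing the data.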

Additional observations from a re-analysis of the deposited data

Results flagged for a closer look

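In groups of 4 arrays, the gap between an extreme array and its nearest neighbour was set against the range of the group, for 66 groups of values. It was above Dixon's 95% critical value for 4 values in 1 group, where chance gives about 5%. On the dimmer Tlr3 probe (A_52_P85174), STD 1 read -4.51 while the other STD diet arrays read -3.87 to -3.82, a gap of 0.927 of the range. On the brighter Tlr3 probe STD 1 read -3.44, beside -3.33 for STD 4.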

How the results depend on the processing

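Over 9 genes and 21 alternatives each, no direction of a member reversed. Many of these could not reverse one, since a changed test, filter, block or threshold leaves the difference as it is. Nor can leaving out arrays reverse a gene whose diets do not overlap. Calls were unchanged for 108 of the values, while 63 lost a call and 18 gained one, with calls of the stricter threshold counted at 1%. The 5 calls at 5% were 2 with quantile normalization, 8 without scaling, 1 without a detection filter, 8 with probes detected on all 8 arrays, and 0 with the methods' unequal-variance test, at the 1% threshold and without both ATH 3 and ATH 4. In the same order, calls over all probes tested were 1918, 7361, 1078, 2673, 23, 164 and 214, beside 2482 in the main fit. With normexp they were 6368. The member calls were 0 to 8 with each array left out, while calls over all detected probes were then 394 to 3978. The 16 calls of the pathway lists were 34 without scaling, 25 with normexp, 7 without a detection filter, 2 at the 1% threshold, 2 without both ATH 3 and ATH 4, and 2 to 26 with each array left out. Over all detected probes 2482 were called, 38.2% of them higher, and this share was 54.9% with median scaling, 54.2% with quantile normalization, 86.4% with spike-ins, 94.9% without scaling and 19.0% with normexp. The 75th percentile itself was higher by 0.45 (log2) on ATH diet arrays and the spike-in probes by 0.14. The cause of the changed counts was not tested, except that a test over fewer probes or arrays is built differently.

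Same-numbered arrays shared a position on their slides, and their deviations correlated at 0.0997, 0.229, 0.181 and 0.175, not each over 0.1, so the numbers were not taken to pair the mice. With the replicate number as a block 1 member was called (Tlr2, adjusted p = 0.0461), and Tlr5 (0.0525), Cd14 (0.0527), Tlr4 (0.0651) and Tlr9 (0.0792) were not. In the paired form, Cd14 minus Tlr4, Tlr2 minus Tlr4 and Tlr7 minus Tlr9 had an exact permutation p of 0.125. That is the smallest that 16 assignments allow. Their differences between diets were 1.42, 1.67 and 2.53, which pairing leaves unchanged by construction. With each array left out these were 1.07 to 1.77, 1.43 to 2.02 and 2.14 to 2.96, with 1.35 to 1.51, 1.63 to 1.73 and 2.45 to 2.60 where the array was of the STD diet and the exact permutation p was 0.0571. Tlr2 minus Tlr1 was 0.85 with normexp (exact permutation test, p = 0.0286). With normexp, whose offset compresses low signals, the differences of Tlr1, Tlr3, Tlr4, Tlr6 and Tlr7 were 1.68, 0.14, 0.47, 0.76 and 1.19.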
